A study of Homo sapiens with 10 samples.

Results

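Genes of the contractile actin cytoskeleton and of the YAP pathway, 10 in number, are described here in 2 human lung cancer cell lines: CCN1, CCN2, ANKRD1, AMOTL2, ACTA2, TAGLN, TPM1, TPM2, MYL9 and CNN2. They were taken by name, through every probe set whose annotation names 1 of these genes and no other. That gave 24 probe sets for 10 genes, of 41091 probe sets and 19775 genes with a single-gene annotation on the array. Expression was measured on 10 Affymetrix arrays, 1 for each combination of 2 lines and 5 treatments. HTB-182, which the series title calls H520, is a squamous cell carcinoma line, and A549 is an adenocarcinoma line. Cells of both lines spent 4 h in medium with 10% charcoal-stripped serum, which is depleted of steroid hormones, and then 3 h in the same medium with the agents. The groups were 0.1% ethanol (vehicle), 1 µM 17β-estradiol, 1 µM 17β-estradiol with 10 µM tamoxifen, 1 µM estradiol-BSA, and 1 µM estradiol-BSA with 10 µM tamoxifen. Estradiol-BSA is estradiol coupled to albumin, used in the study to reach receptors at the plasma membrane, and tamoxifen is a ligand of estrogen receptors used as an inhibitor. The design has no array of tamoxifen alone or of albumin alone. Each line stands for its tumour type through 1 established culture. The titles of the arrays with estradiol and tamoxifen name tamoxifen only, and each A549 source description adds the suffix of HTB-182 although its cell line entry reads A549.

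YAP and its relative TAZ are carried into the nucleus when the Hippo kinases LATS1 and LATS2 are inactive, and there they bind TEAD transcription factors on their target genes. Tension in actin filaments favours this entry. Actin also acts on a neighbouring route, in which polymerization releases the coactivators MRTF to join the serum response factor SRF on CArG boxes of contractile genes. CCN1 and CCN2 are secreted matricellular proteins, ANKRD1 is an ankyrin repeat protein, and AMOTL2 is an angiomotin family protein that holds YAP back. All 4 are widely used as readouts of YAP. ACTA2 is smooth muscle alpha actin, TAGLN and CNN2 bind actin filaments, TPM1 and TPM2 are tropomyosins that lie along the filament, and MYL9 is a regulatory light chain of myosin.

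The sequences upstream of these genes show where the core letters of both motifs lie. They come from RefSeq, build GRCh38.p14, as windows of 300 bases (250 before and 50 after a gene's start). Of the 10 genes, 7 had a window, 10 windows in all. CCN1, TAGLN and MYL9 had no entry. The TEAD core was searched as GGAATG and as its complement CATTCC. The CArG box was searched on both strands in its strict form of 10 bases, CC and GG around bases that are all A or T. Looser forms of it were not searched. Sites of the TEAD core did not overlap a CArG box. The TEAD core was found in windows of 4 genes and the CArG box in a window of 1. The stretches that hold a match are printed 5′ to 3′ on the strand of the gene, with the match in capitals and 11 bases on each side.
CCN2 (chr6:131951451-131951552, minus strand): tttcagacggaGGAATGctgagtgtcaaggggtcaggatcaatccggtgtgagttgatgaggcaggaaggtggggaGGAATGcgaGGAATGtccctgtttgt
ANKRD1 (chr10:90921199-90921318, minus strand): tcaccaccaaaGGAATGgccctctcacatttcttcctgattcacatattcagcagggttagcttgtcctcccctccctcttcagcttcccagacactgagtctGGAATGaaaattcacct
AMOTL2 (chr3:134374500-134374527, minus strand): tgaaactctcaCATTCCtggcatagcag
ACTA2 (chr10:88952940-88952967, minus strand): agcagaccagtGGAATGcagtggaagag
CNN2 (chr19:1026508-1026539, plus strand): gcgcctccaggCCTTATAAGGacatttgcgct
The CCN2 stretch holds 3 matches, which begin at bases -169, -104 and -95 from the start. ANKRD1 holds 2, at -220 and -128. AMOTL2 and ACTA2 each hold 1, at -69 and -183, in 1 of the 2 windows listed for each gene. Of all 35116 windows of this length, 14% held the TEAD core at least once, 1.37% at least 2 times and 0.128% at least 3 times. CNN2 holds the CArG box at -89, and 1.29% of all windows held one. The windows of TPM1 and TPM2 hold neither. These matches describe letters and not bound sites, since no binding was measured.

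The first comparison asks how the lines differ. Most of the members that could be tested were higher in A549. Intensities are linear values in the array's arbitrary units, and differences are on the scale log2(intensity + 16), where the added 16 damps dim probe sets and understates their fold changes. A gene is represented by its brightest probe set and was tested if its mean reached an intensity of 19.7, the median probe set. Of the 10 members, 9 reached it, and 6 of those 9 were called higher in A549 with limma at an adjusted p of 0.05, while 1 was called lower. Over all 12979 tested genes, 33.6% were called higher and 32% lower, so a call for either direction was common. The members' median difference was 2.30, against 0.03 for all tested genes. CCN2, ACTA2 and TPM2 averaged under the filter level in HTB-182 (13.5, 15.3 and 10.0) and reached it through A549 alone. Their part in the count and in the median is therefore not independent of the filter. Errors below are SD over the 5 arrays of a line, which received different treatments, and the model's standard error for differences. No replicate cultures are stated, so the p-values reflect only how these arrays scatter, part of which may be technical.

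**Figure D1:**
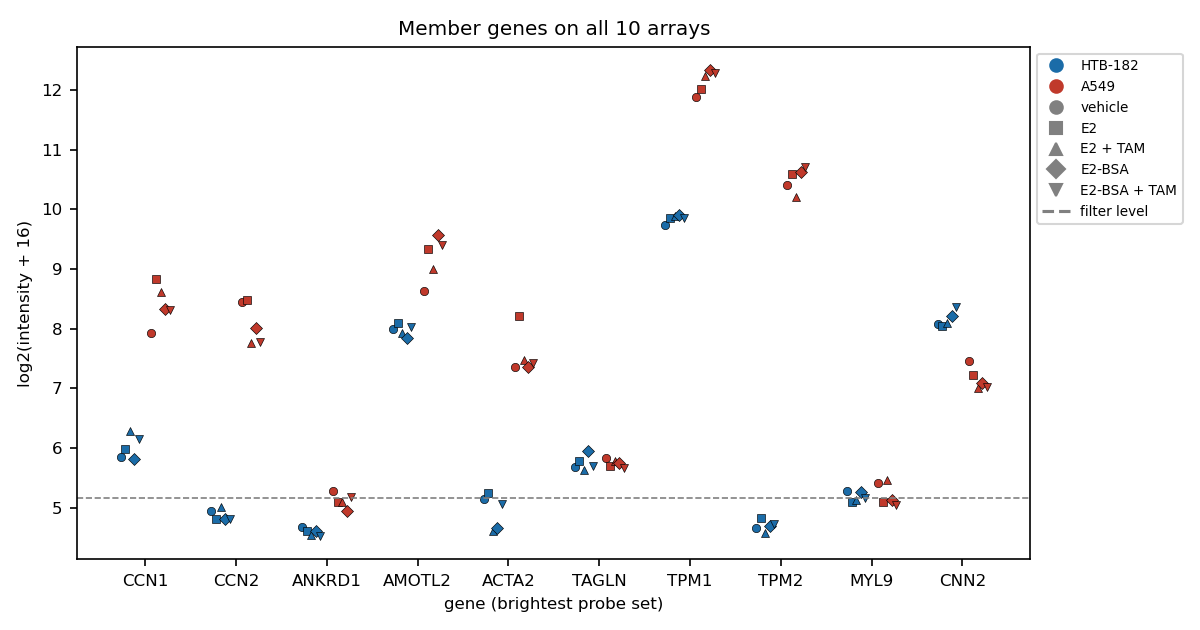
Level of each member's brightest probe set on all 10 arrays, as log2(intensity + 16). Colour gives the line, the marker shape gives the treatment (E2, estradiol; TAM, tamoxifen), and the dashed line is the filter level, an intensity of 19.7. TPM2 stands near 10.0 in HTB-182 and 1453 in A549 before the log, and TAGLN and MYL9 overlap.

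Among the YAP readouts, the secreted factors differed most. CCN1 read 41.5, 47.4, 62.4, 40.3 and 55.0 in HTB-182 (vehicle, estradiol, estradiol with tamoxifen, estradiol-BSA and estradiol-BSA with tamoxifen, the order used throughout). In A549 it read 229, 439, 377, 306 and 301. Every A549 array lay above every HTB-182 array, and the difference was 2.39 ± 0.13 (SE, 5 pairs, limma adjusted p = 1.95e-08). CCN2 read 14.8, 12.0, 16.3, 12.2 and 12.1 in HTB-182, all under the filter level. In A549 it read 332, 343, 200, 242 and 204. Its difference was 3.22 ± 0.14 (limma adjusted p = 3.66e-09).

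AMOTL2 was well measured in both lines. It read 238, 258, 228, 214 and 245 in HTB-182, and 382, 632, 495, 740 and 660 in A549. The lines did not overlap, and A549 was higher by 1.21 ± 0.14 (limma adjusted p = 1.18e-05). ANKRD1 was near the bottom of the range, at 8.18 ± 1.02 (SD, n = 5) in HTB-182 and 18.8 ± 2.96 (SD, n = 5) in A549. It did not reach the filter and has no call in the main fit. Its 5 pairs all lay above 0, with a difference of 0.52, and with no filter on dim genes it passed (limma adjusted p = 9.77e-06).

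The contractile members split into 3 kinds. By brightest probe set, ACTA2, TPM1 and TPM2 were higher in A549, TAGLN and MYL9 showed no difference that passed, and CNN2 was lower. ACTA2 read 19.5, 22.0, 8.29, 9.18 and 17.3 in HTB-182, around or below the filter level, and 149, 280, 163, 148 and 156 in A549, a difference of 2.63 ± 0.13 (limma adjusted p = 8.36e-09). TPM1 averaged 907 ± 42.6 in HTB-182 and 4560 ± 594 in A549 (SD, n = 5 each), a difference of 2.30 ± 0.07 (limma adjusted p = 1.14e-10).

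TPM2 showed the widest gap among the members. It read 9.37, 12.5, 7.80, 9.80 and 10.5 in HTB-182, and 1343, 1535, 1160, 1559 and 1668 in A549. The difference was 5.81 ± 0.10 (limma adjusted p = 3.44e-12). TPM2 passed the filter through A549 alone, all HTB-182 arrays lay under it, and the size of the difference depends on the pseudocount, reaching 7.05 with a pseudocount of 1.

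CNN2, a calponin found outside muscle as well, went the other way. It read 256, 248, 256, 280 and 315 in HTB-182, and 160, 134, 112, 120 and 115 in A549. No arrays overlapped, and the difference was -0.998 ± 0.119 (limma adjusted p = 1.95e-05). Its probe set carries the manufacturer's suffix x_at for probes shared with other sequences, so related transcripts can add to its signal. TAGLN averaged 38.0 ± 4.72 in HTB-182 and 37.7 ± 2.43 in A549 (SD, n = 5 each), with a 95% interval for the difference from -0.20 to 0.19. MYL9 averaged 20.5 ± 2.08 and 21.8 ± 5.20 (SD, n = 5 each), close to the filter level, with an interval from -0.15 to 0.24. For these 2 probe sets, the intervals leave out a difference as large as that of AMOTL2. They reflect the scatter of dim probe sets and do not bound a difference in RNA. At a level like that of TAGLN, 227397_at of TPM2 was as flat (38.5 and 37.7), while 204083_s_at of TPM2 differed by 5.81.

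Several genes had probe sets that disagreed. Of the 24 probe sets, 14 had all A549 arrays above all HTB-182 arrays and 1 had all below, where 19% and 18.1% of all 41091 single-gene probe sets did so. Of the 17 above the filter, 12 were called higher and 1 lower when each probe set was fitted on its own, where 31.5% and 32.3% of the 23144 fitted probe sets were called. Some of those 17, such as 212654_at of TPM2, passed the filter through A549 alone. For TPM2 the bright probe set 204083_s_at carried the gap. Probe set 212654_at read 8.76 ± 1.22 in HTB-182 and 37.0 ± 10.4 in A549, while 227397_at stood at 38.5 ± 1.14 in HTB-182 and 37.7 ± 3.13 in A549 (SD, n = 5 each), and 229911_at was near 8.04 and 7.60. The remaining 2 probe sets of ACTA2 lay near 4.48 and 5.50, and 4.74 and 5.10. For TPM1, 5 of 6 probe sets were higher in A549, with differences from 1.08 to 2.59, and 1558532_at was 19.4 in HTB-182 and 19.6 in A549. For TAGLN, 205547_s_at lay below the filter and read from 5.82 to 8.48 in HTB-182 and from 9.01 to 17.1 in A549, without overlap. The lines overlapped on 1555724_s_at of TAGLN, with a difference of 0.14 (limma adjusted p = 0.185). They also overlapped on 201058_s_at of MYL9, which lay below the filter. The files do not say which transcripts each probe set reads.

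**Figure D2:**
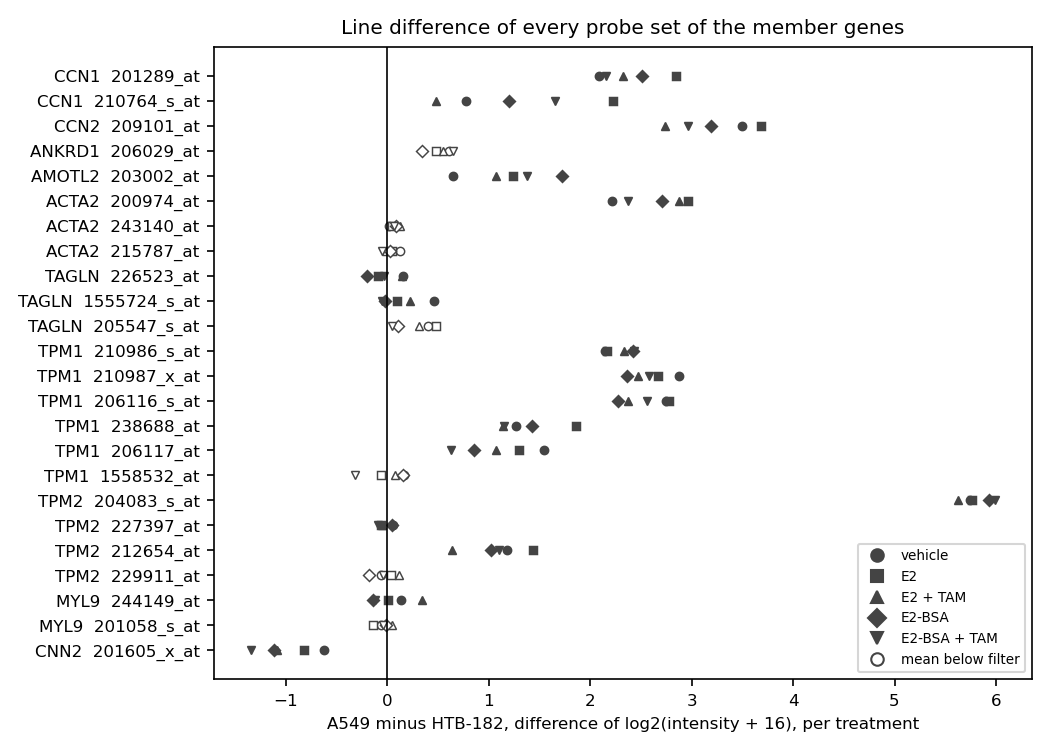
Difference between A549 and HTB-182 for each of the 24 probe sets, 1 point per treatment, on the log2(intensity + 16) scale. Open points belong to probe sets whose mean is below the filter. Probe set 204083_s_at of TPM2 lies near 5.81, and 227397_at of the same gene lies at 0.

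Genes around the members were read from lists of related genes. Of 18 tested YAP and TEAD targets outside the members, 13 were higher in A549 and 5 lower, with a median difference of 0.79 against 0.03 for all genes. Over all tested genes 33.6% were called higher and 32% lower. MYOF, a membrane repair protein, averaged 6.71 in HTB-182 and 1867 in A549, a difference of 6.35 (limma adjusted p = 7.55e-12). CRIM1, the receptor kinase AXL and the LIM protein AJUBA followed, with differences of 4.49, 4.26 and 3.87. MYOF, AXL, NT5E and CCDC80 averaged under the filter level in HTB-182 (6.71, 13.2, 5.02 and 19.4) and were tested through A549 alone. Their part in the count and in the median of this list is therefore not independent of the filter. FOXF2 fell outside that direction, with 702 in HTB-182 and 174 in A549 (difference -1.94), and was picked after its values were seen. The 20 tested Hippo components gave 10 higher and 4 lower, with a median of 0.28. TEAD3, among those higher, averaged 18.5 in HTB-182 and was tested through A549 alone. TEAD1, a DNA-binding partner of YAP, read between 2454 and 2822 in A549 and between 363 and 412 in HTB-182. LATS2, a kinase that inhibits YAP and is itself one of its targets, and WWTR1, which encodes TAZ, were also higher, by 2.29 and 2.26, and VGLL3, a TEAD cofactor, had a difference of -2.02. YAP1 itself, chosen after its values were seen, differed by 0.33 ± 0.10 (limma adjusted p = 0.0131), higher in 4 of 5 pairs, while the median over its remaining 2 probe sets was -0.03. The size rests on the brightest probe set for several of these genes: the others had a median of 0.14 for LATS2, 0.37 for AXL, 1.48 for AJUBA and 2.21 for MYOF.

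The contractile and SRF list held 25 tested genes, 16 higher and 2 lower, with a median of 0.51. Over all tested genes 33.6% were higher and 32% lower, with a median of 0.03. CALD1, which binds actin and tropomyosin, averaged 122 ± 10.8 in HTB-182 and 2235 ± 145 in A549 (SD, n = 5 each), a difference of 4.03. PDLIM5, TGFB1I1 and FHL2, LIM domain proteins of actin structures and adhesions, were higher by 4.12, 2.42 and 2.05. CNN3, a relative of CNN2 picked after its values were seen, was lower like CNN2, at 2339 ± 112 against 657 ± 66.6. SRF, chosen after its values were seen, was lower in A549, at 132 ± 13.4 and 74.2 ± 15.4, a difference of -0.73 (limma adjusted p = 0.000589), but its other probe set gave -0.00. Its coactivators MRTFA and MYOCD, named likewise after their values were seen, were higher by 1.19 and 1.46 (limma adjusted p = 1.52e-05 and 4.34e-07), with medians of -0.08 and 2.07 for their other probe sets. The other probe sets of PDLIM5, CALD1 and CNN3 had medians of 0.58, 0.51 and -0.13. Of 2 tested relatives of the CCN genes, CCN5 was higher, with 18.7 ± 2.91 and 68.3 ± 27.2, and CCN3 was not called (17.9 and 24.2). Both averaged under the filter level in HTB-182 and were tested through A549 alone. CCN4 and CCN6 did not reach the filter.

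Markers of cell types were read beside these contrasts. The labels name a squamous and a glandular tumour, and KRT7, KRT8 and KRT18, keratins of glandular epithelium, were higher in A549, while NKX2-1 stayed under the filter in both lines. Of the 7 tested glandular markers 6 were called higher, and SFTPB gave -0.14 and was not called. SOX2, frequent in squamous lung tumours, averaged 4152 in HTB-182 and 135 in A549. The size rests on the brightest probe set for KRT7 and SOX2. Their differences were 6.64 and -4.92, while their other probe sets had medians of 0.09 and -0.93. The squamous keratins KRT5 (22.1 and 26.1) and KRT14 (8.43 and 7.68) lay near or under the filter level in both lines, HTB-182 included. The 6 smooth muscle markers summed to between 105 and 116 in HTB-182, and between 180 and 208 in A549. CNN1, the muscle calponin, was near 9.15 and 9.27, and 1 of the 4 tested markers was called, SYNPO2, higher in A549. SYNPO2 and KRT7 averaged under the filter level in HTB-182 (4.87 and 18.1) and were tested through A549 alone. The fibroblast markers summed to between 83.0 and 102 in HTB-182 and between 375 and 569 in A549, with COL1A1 at 382. Each array holds RNA from a culture of 1 established line, so these sums give RNA levels in that culture and do not count cells of other types. The part of these markers in the line differences was not tested.

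The second comparison asks what estradiol and estradiol-BSA did in 3 h. No member was called in either treatment against vehicle, and no other gene was (0% of 12979 with limma for each, against 581 and 840 genes at an unadjusted p under 0.05). With the HTB-182 vehicle array left out, 1078 and 2058 genes passed, AMOTL2 (0.76, limma adjusted p = 0.0276) and ACTA2 (0.73, 0.0423) among them for estradiol, and AMOTL2 (0.74, 0.0202) and TPM1 (0.41, 0.0276) for estradiol-BSA. Vehicle is then the A549 array alone. With the A549 vehicle array left out instead, 1 and 0 genes passed and no member did, and AMOTL2 gave 0.05 for estradiol and 0.04 for estradiol-BSA. With 1 array per group, the spread in the fit of all arrays holds both array noise and differences between the lines in response, which cannot be told apart. The A549 vehicle array stood apart from its line, where 263 genes lay 2-fold or further from the average of the remaining A549 arrays, against 23 to 35 genes for each of those and 0 to 3 in HTB-182. Every value against the A549 vehicle rests on that array.

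CCN1 had the largest member difference for estradiol against vehicle, 0.52 (95% interval 0.08 to 0.96, limma adjusted p = 0.913). The line-wise differences were 0.14 in HTB-182 and 0.89 in A549. ACTA2 gave 0.47 (0.03 to 0.91) and AMOTL2 0.41 (-0.07 to 0.88), both with limma adjusted p = 0.913. TPM1 gave the member difference with the smallest p for estradiol-BSA against vehicle, 0.31 (0.08 to 0.54, limma adjusted p = 0.665). The other 4 TPM1 probe sets above the filter gave -0.44, -0.17, -0.07 and -0.04 in that comparison, so the estimate, and the TPM1 call without the HTB-182 vehicle array, are those of the brightest probe set, and the others were opposite in sign to it with all arrays.

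Within A549, where each treatment is 1 array and there is no test, estradiol stood at least 1.5-fold above vehicle for CCN1 (229 to 439), AMOTL2 (382 to 632) and ACTA2 (149 to 280). Over all tested genes 4.65% did so. AMOTL2 was also past that fold with estradiol-BSA (740, background 5.82%) and with estradiol-BSA and tamoxifen (660, background 6.05%). CCN1 was past it with estradiol and tamoxifen (377, background 4.77%). Its other probe set, 210764_s_at, did not follow this in A549, at 52.1 with vehicle, 124 with estradiol and 31.6 with estradiol and tamoxifen. In HTB-182 that probe set read 23.7 with vehicle and 14.1 with estradiol, opposite in sign to the brightest. CCN2 was lower past it with both tamoxifen treatments, at 200 with estradiol (background 7.87%) and at 204 with estradiol-BSA (background 12.3%). In HTB-182 no member passed 1.5-fold against vehicle, and no member in either line passed 2-fold.

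**Figure D3:**
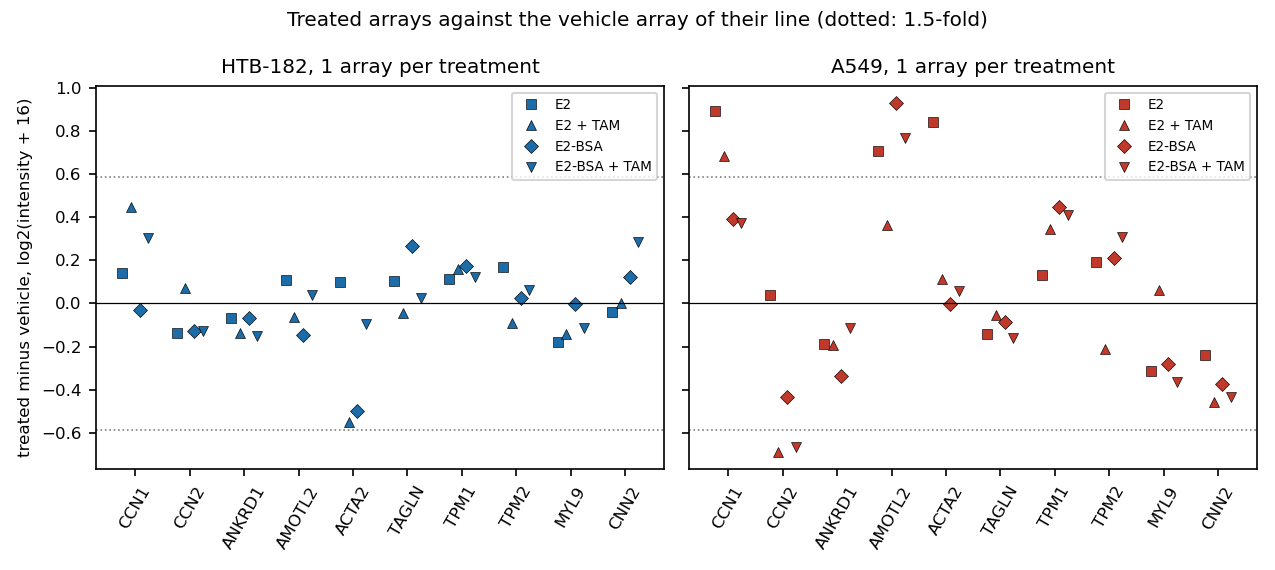
Each treated array minus the vehicle array of its line, on the log2(intensity + 16) scale, for the 10 members. HTB-182 is on the left, A549 on the right, 1 array per point, and the dotted lines mark 1.5-fold. The CCN1, AMOTL2 and ACTA2 points of A549 estradiol lie at 0.89, 0.70 and 0.84, and the CCN2 points with tamoxifen lie at -0.69 and -0.66.

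The difference between the lines in their response to estrogen was tested directly. Over all genes 369 were called (2.84%), and 0 of the 9 members were. AMOTL2 was nearest, with 0.83 (95% interval 0.26 to 1.40, limma adjusted p = 0.114), ahead of ACTA2 at 0.62 and CCN1 at 0.59. The model reproduces each vehicle array exactly, so these values rest on 1 vehicle array per line. Without the HTB-182 or the A549 estradiol array AMOTL2 gave 1.07 in each case. The estradiol array that remains is then fitted exactly. Both refits therefore give the same contrast of estradiol-BSA against vehicle (-0.14 in HTB-182, 0.93 in A549) and are not separate checks. They leave out the estradiol differences, 0.11 in HTB-182 and 0.70 in A549. With all arrays, MOB1B, NT5E and VGLL3 passed among the YAP target, Hippo and contractile lists. Of the squamous markers SOX2 did (2.04, limma adjusted p = 5.89e-08). Each was low on the A549 vehicle array. MOB1B, an activator of LATS kinases, read 24.8 there and 229, 280, 256 and 275 on the other A549 arrays. NT5E, a YAP target, read 88.2 there and 282, 379, 388 and 362 on the others. Its remaining 3 probe sets gave a median of 0.07 in the same comparison, against 1.74 for the brightest, and the other probe set of VGLL3 gave -0.03 against 1.08. SOX2 read 36.1 on the A549 vehicle array and between 131 and 192 on the others, and its other 3 probe sets gave a median of 0.17.

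The third comparison sets estradiol-BSA against free estradiol, both at 1 µM for 3 h. ACTA2 stood out among the members by size. It read 22.0 with estradiol and 9.18 with estradiol-BSA in HTB-182, and 280 and 148 in A549. It was lower in both lines, with line-wise differences of -0.59 and -0.85 on the log2 scale. The joint difference was -0.72 (95% interval -1.16 to -0.28), but it did not pass (limma adjusted p = 0.993), and no gene of 12979 did (0%; 454 at an unadjusted p under 0.05). Within a line, 0.116% of genes were at least 1.5-fold lower in HTB-182 and 3.24% in A549, and ACTA2 was the member among them in each. The HTB-182 values lie around the filter level. For the other 8 tested members the difference ran from -0.34 (CCN1) to 0.19 (TPM1). Over pairs with and without tamoxifen the ACTA2 difference was -0.26 (95% interval -0.57 to 0.05).

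**Figure D4:**
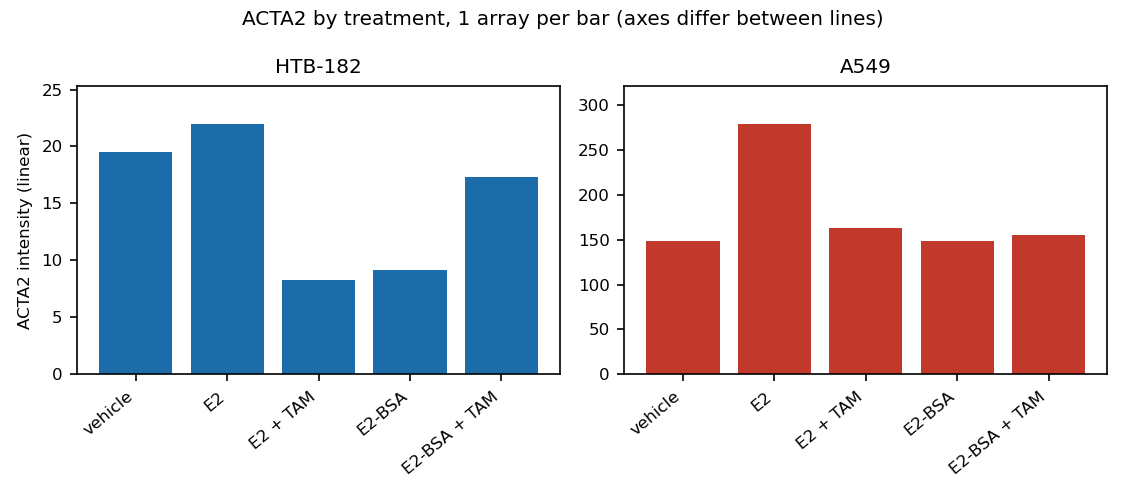
ACTA2 intensity on a linear axis, 1 array per bar, HTB-182 on the left and A549 on the right with different axis ranges. The estradiol bar is the tallest in each line, at 22.0 and 280, and the vehicle bar reads 19.5 and 149.

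The fourth comparison adds tamoxifen to either estrogen. No member passed over both forms, and no gene did (0%; 151 genes at an unadjusted p under 0.05). Member differences ran from -0.23 (ACTA2) to 0.10 (CCN1). With estradiol, ACTA2 was at least 1.5-fold lower in both lines when tamoxifen was present, from 22.0 to 8.29 in HTB-182 (background 0.123%) and from 280 to 163 in A549 (background 2.08%). CCN2 in A549 went from 343 to 200 with estradiol and from 242 to 204 with estradiol-BSA. With estradiol-BSA, ACTA2 read 9.18 without and 17.3 with tamoxifen in HTB-182, and 148 and 156 in A549. The difference between these tamoxifen effects for ACTA2 was 0.92 (95% interval 0.30 to 1.54, limma adjusted p = 1.00), at 1.05 in HTB-182 and 0.79 in A549. ACTA2 reached the filter through A549 alone, and the HTB-182 value comes from intensities around or under it, so it adds little to the A549 value. No gene passed in that comparison (0%; 116 unadjusted). The estradiol arrays enter this value and the preceding one, so they are not separate evidence. The effect of tamoxifen in A549 against HTB-182 gave CCN2 the largest member value, -0.60 (95% interval -1.12 to -0.09, limma adjusted p = 0.971), and no gene passed (0%; 260 unadjusted). With array quality weights CCN2 passed there, at -0.78 (limma adjusted p = 0.0409). All HTB-182 arrays of CCN2 lay under the filter level, between 12.0 and 16.3, so that line had little room to show a decrease and the contrast is set by the A549 arrays.

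TPM1 shows opposite treatment patterns between its probe sets. In A549, 210986_s_at read 3760, 4119, 4785, 5136 and 5001, with the vehicle lowest. Probe set 210987_x_at read 2820, 2813, 2269, 2249 and 2377, and 206116_s_at read 1731, 1825, 1273, 1301 and 1371, with vehicle and estradiol highest in both. In HTB-182 the same probe sets ranged less, from 836 to 946, from 372 to 428 and from 220 to 256. These are single arrays with no test.

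**Figure D5:**
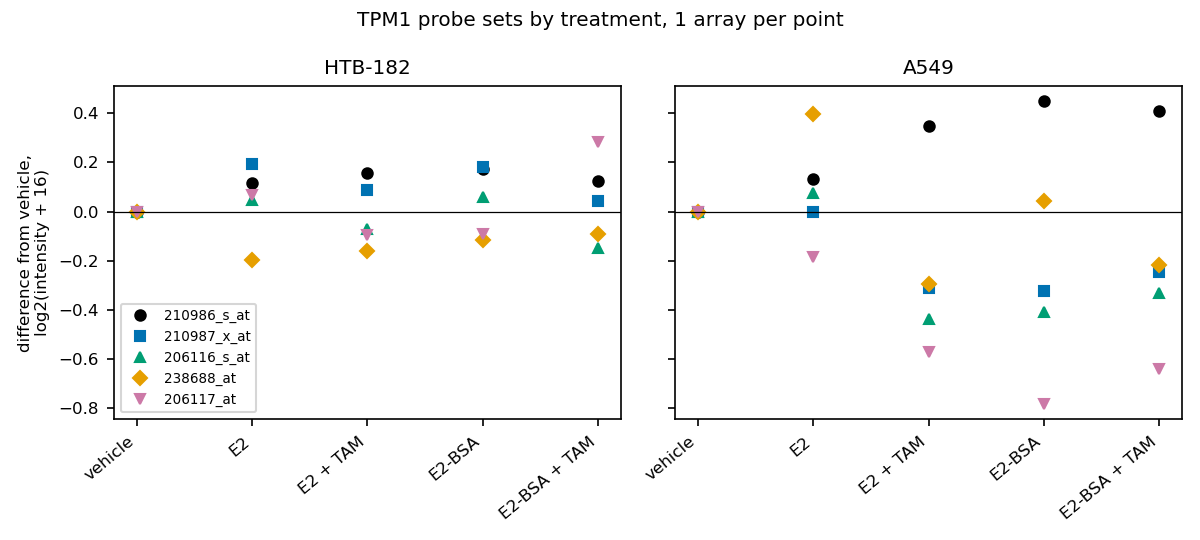
The 5 TPM1 probe sets above the filter, as differences from the vehicle array of the line on the log2(intensity + 16) scale, 1 array per point. In A549 210986_s_at lies above 0 on the treated arrays, and 210987_x_at and 206116_s_at lie below it on the last 3 treatments.

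Within lines, ACTA2, CCN1 and AMOTL2 varied most among the tested members, with SDs of 0.33, 0.28 and 0.27 on the log2 scale against a median of 0.15 for all tested genes. Genes of most similar pattern were ranked by the correlation of line-centred values over the 10 arrays, as a description. Arrays share a line and the treatments. For AMOTL2 the closest was GREM1, a secreted BMP antagonist, with r = 0.99 (0.98 without the A549 vehicle array). GREM1 read 72.8, 113, 97.8, 125 and 114 in A549 and under 8 in HTB-182, below the filter level. Its other probe set gave -0.28 for the estrogen effect by line, against 0.65 for the brightest, so the likeness is that of the brightest probe set. DPY19L4 and ASB9 followed at 0.95 and 0.94, and both dropped to 0.86 without that array. For ACTA2 the closest were MEX3D, SUFU and PABPC1, at 0.91 each. For CCN1 they were CTNNA2, SLC45A3 and PCED1A, at 0.93, 0.92 and 0.91, and at 0.91, 0.84 and 0.83 without the A549 vehicle array.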

How the data were processed

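Total RNA of each culture was hybridised to 1 array. The values are linear intensity values that the authors deposited in a single table of 54675 probe sets; MAS5 is the program in the submitters' processing notes, with no version or scaling target named. The 2% trimmed means of the arrays ran from 106 to 116, so no further scaling was applied in the main setting. Gene names came from the platform annotation. Intensities were taken as log2(intensity + 16), with the brightest probe set per gene, and genes at or above the median probe set (intensity 19.7) were tested, 12979 in all. Differences were fitted with limma 3.58.1 in R 4.3.3 (intensity trend, Benjamini-Hochberg at 0.05) with line and treatment as terms (4 residual degrees of freedom), then with a line-by-tamoxifen term (3) and a line-by-estrogen term (2). The scripts were tested on simulated data. The members, lists and tests were chosen with earlier results of these data known. Named list genes were up to 4 per list with the largest line difference in all 5 pairs, any list gene passing for a treatment (up to 4), and the 3 genes most like each of the 3 most variable members. Alternatives changed the pseudocount, filter, probe set choice, scaling, array weights, trend and arrays. The number of arrays limits the precision. A further gene list is not reported here.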

Additional observations from a re-analysis of the deposited data

How the results depend on the processing

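The line differences of the members kept their direction and side of the threshold in all 174 refits, apart from 9 in which TAGLN or MYL9, not called, turned sign. TPM2 ranged from 1.71 (mean of its probe sets) to 7.05 (pseudocount 1). Genes called between the lines numbered 5552 with a mean intensity of 100 or more and 14762 over every probe set. Of 1209 refits of member treatment values, 7 passed newly and 84 turned sign without a call. Leaving out 1 array moved the members called for estradiol against vehicle between 0 and 2 (genes 0 to 1078), and for estradiol-BSA between 0 and 2 (genes 0 to 2058). The upper values came without the HTB-182 vehicle array, when AMOTL2 and ACTA2, or AMOTL2 and TPM1, passed. Genes for estradiol-BSA against estradiol numbered 0 to 1 with an array left out, 1 with array weights and 1 over pairs with and without tamoxifen. The tamoxifen effect by line gave 1 member and 105 genes with array weights, and 0 to 4 genes with an array left out. The estrogen effect by line gave 37 genes for the mean of probe sets and 218 after quantile normalization. Without the HTB-182 or the A549 estradiol array, 2251 and 2290 genes passed, AMOTL2 among them; with any 1 array left out, 0 to 1 members and 279 to 2290 genes passed. The refits without an estradiol array give the same contrast, estradiol-BSA against vehicle, so they are not separate checks. The line-by-estrogen term could not be fitted without a vehicle array. At 2-fold, 0 members passed in any of the within-line pairs. Pairing by replicate number was not possible because each group holds a single replicate number. Arrays were matched by line and treatment through the terms of every fit. The cause of these changes was not tested.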
